A study of Mus musculus with 10 samples.

Results

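The genes described are 9 transcription factors that build and maintain surface epithelium, chosen by name: Trp63, Tfap2a, Tfap2b, Tfap2c, Grhl1, Grhl2, Grhl3, Ovol1 and Ovol2. They are 9 of 55401 genes in the deposited count table and 9 of the 19126 genes with enough counts to be tested. RNA sequencing was done on ectoderm peeled from mouse forelimb buds at embryonic day E9.75. There were 3 libraries from embryos labelled as double knockouts of the zinc finger factors Sp8 and Sp6 (SP8&SP6_DOUBLE_KO, here DKO) and 3 from WT littermates. Each library took the ectoderm of about 2 forelimb buds. The sources used here do not give the knockout alleles. A further 4 libraries at E10.5, 2 labelled SP6KO and 2 labelled WT, were not analysed here. Libraries are named by group and by the number in the table's column (WT 32, WT 53, WT 56, DKO 17, DKO 40, DKO 41), since these numbers match no replicate number of the labels. Whether samples of a group come from separate embryos is not stated, and the p-values then cover only the spread among these libraries, which may be technical.

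p63, the product of Trp63, is the factor that commits surface ectoderm to a stratified epithelium, and embryos without it form truncated limbs because the ectodermal ridge fails. The TFAP2 proteins act with p63 as early ectodermal activators. Grainyhead-like (GRHL) proteins switch on cell adhesion and barrier genes and are needed for epithelial sheets to close, and OVO-like (OVOL) proteins are repressors that hold epithelial cells back from mesenchymal programmes. The comparison addresses how these factors stand in limb ectoderm labelled as a knockout of both Sp8 and Sp6, which are required for the apical ectodermal ridge, the distal signalling rim of the limb bud.

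Promoter sequences are shown for 3 of the genes because the series concerns SP factors, zinc finger proteins that bind GC-rich boxes. Grhl3 and Grhl1 had the lowest DKO levels relative to WT, and Tfap2b is shown beside them as the gene whose mean was higher in DKO. The sequences are RefSeq start-site windows of GRCm38.p6, from 250 bases before to 50 bases after an annotated start. Capitals mark the GC box GGGCGG and the CACC box CCACCC on either strand, so that CCGCCC is a GC box on the other strand.
Grhl3 promoter, chr4:135573583-135573882, minus strand: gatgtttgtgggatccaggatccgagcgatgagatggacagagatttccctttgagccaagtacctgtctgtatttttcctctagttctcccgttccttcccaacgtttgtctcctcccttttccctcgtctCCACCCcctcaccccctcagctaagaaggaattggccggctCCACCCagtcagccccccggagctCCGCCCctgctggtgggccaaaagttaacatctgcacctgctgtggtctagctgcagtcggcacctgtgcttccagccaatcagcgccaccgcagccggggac
Grhl1 promoter, upstream of 2 windows, chr12:24572037-24572336, plus strand: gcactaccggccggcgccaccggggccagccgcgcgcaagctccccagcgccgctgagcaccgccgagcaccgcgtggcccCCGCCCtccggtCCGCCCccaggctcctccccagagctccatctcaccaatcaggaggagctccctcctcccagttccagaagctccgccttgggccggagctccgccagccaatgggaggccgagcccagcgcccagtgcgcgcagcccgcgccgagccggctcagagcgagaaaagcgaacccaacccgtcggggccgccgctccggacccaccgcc
Tfap2b promoter, chr1:19211804-19212103, plus strand: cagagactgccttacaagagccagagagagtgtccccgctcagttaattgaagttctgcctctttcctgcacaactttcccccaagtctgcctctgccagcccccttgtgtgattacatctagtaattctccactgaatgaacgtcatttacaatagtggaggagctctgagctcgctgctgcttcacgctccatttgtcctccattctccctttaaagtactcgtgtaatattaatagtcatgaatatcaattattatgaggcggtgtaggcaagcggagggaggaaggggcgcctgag

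The Grhl3 window held 1 GC box and 2 CACC boxes, none overlapping another. Its GC box began 53 bases before the start site. The Grhl1 window held 2 GC boxes and 0 CACC boxes, and the Tfap2b window held neither. Over 32851 promoter windows of the same length, 35.7% held a GC box and 31.5% a CACC box. The windows differ in base composition, with 58.3% G and C in Grhl3, 75.3% in Grhl1 and 48.3% in Tfap2b. The AP-2 motif GCCNNNGGC occurred once in the Grhl1 window, not overlapping its GC boxes, and in 16.6% of all windows. The grainyhead-like motifs AACCGGTT (0.146% of windows) and AACNGGTT (2.09%), of which the first is a case of the second, and the OVO-like motif CCGTTA (2.76%) were not found in these 3 windows. Windows were matched for 5 of the 9 genes. Of the windows not printed, that of Ovol2 and the second of Grhl1 (chr12:24580469-24580768) held 1 CACC box each, and the 2 of Tfap2a held 1 GC box each, and 1 of those also held the homeodomain motif TAATTA (5.29% of windows). These are letter matches only.

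The deposited table holds between 64432348 and 87040786 counts per library. Levels are given in CPM, counts scaled to the depth of the library with TMM normalization factors, as mean ± SD over 3 libraries. For the targeted genes, WT libraries held 31.3 to 43.2 CPM of Sp8 and DKO libraries 2.38 to 5.86 CPM. WT libraries held 228.5 to 319.9 CPM of Sp6, and DKO 17, DKO 40 and DKO 41 held 133.2, 13.9 and 76.9 CPM. Sp8 was called lower (edgeR adjusted p = 0.000806) and Sp6 was not (adjusted p = 0.207, from 0.0487 to 0.446 with 1 library left out). The groups did not overlap for either gene. Exons of Sp6 share 3329 bases with an opposite-strand gene, and without the alleles it is not known whether the counted exons include the deleted part. Surface epithelium markers (9 of 9 tested) summed to between 3527 and 3931 CPM in the WT libraries and between 2554 and 3284 CPM in the DKO libraries, with Epcam, Cdh1, Krt8 and Krt18 present in every library. Of these 9, Epcam and Cdh1 were called lower and Krt8 higher (344.7 ± 18.6 to 478.3 ± 26.4 CPM, edgeR adjusted p = 0.0315, up to 0.163 with 1 library left out). For this and the lists below, 2.81% of all tested genes were called lower and 1.7% higher. The lowest log2 fold change of the surface epithelium list was that of Krt5, also a p63 target and named after its values were seen. Krt5 averaged 312.1 ± 54.8 CPM in WT libraries and was at 12.7, 8.09 and 64.96 CPM in DKO 17, DKO 40 and DKO 41. Its log2 fold change of -3.43 did not pass (edgeR adjusted p = 0.0635). Limb mesenchyme markers (11 of 11 tested) summed to 110.0 to 248.8 CPM in WT libraries against 145.4 to 339.1 CPM in DKO libraries. That sum mixes opposite changes. Pdgfra was called lower (66.6 ± 28.6 to 7.66 ± 4.41 CPM) and Tbx2 higher (2.475 ± 1.01 to 14.8 ± 9.71 CPM). Prrx2 averaged 35.1 ± 15.6 CPM against 107.6 ± 58.5 CPM (edgeR adjusted p = 0.0906). Prrx2, Twist1 and Tbx2 were higher in each DKO library than in each WT library, and Pdgfra was lower in each. The groups overlapped for the other markers of the list, Prrx1, Col1a1, Col3a1, Tbx5, Fgf10, Hand2 and Lmx1b, and none of these was called. Blood markers (8 of 10 tested) summed to 0 to 301.5 CPM in WT libraries and to 27.1, 127.2 and 919.2 CPM in DKO 17, DKO 40 and DKO 41. Neural crest and Schwann precursor markers (6 of 7 tested, 0 called) summed to 38.6 to 41.04 CPM in WT libraries and 39.0 to 47.7 CPM in DKO libraries, mostly from Erbb3, which epithelium also expresses. Sox10 of that list averaged 2.155 ± 1.86 CPM against 8.875 ± 4.98 CPM, with the groups overlapping (edgeR adjusted p = 0.1025, from 0.02845 to 0.359 with 1 library left out). Foxd3 of that list, the endothelial marker Cdh5 and the macrophage markers Adgre1 and C1qa were at 0 counts in all 6 libraries. The other endothelial and macrophage markers had low counts. Endothelial sums were 0.332 to 0.695 CPM in WT libraries and 0.818 to 1.645 CPM in DKO libraries, and macrophage sums were at most 0.717 CPM, in DKO 41. Muscle precursor markers (4 of 5 tested, 0 called) summed to 20.1 to 27.4 CPM in WT libraries and 35.3 to 43.0 CPM in DKO libraries. That sum was mostly Met (23.7 ± 3.88 against 37.9 ± 3.20 CPM, edgeR adjusted p = 0.0586). Ridge markers (11 of 11 tested) summed to 1737 to 2070 CPM in the WT libraries against 269.6 to 458.0 CPM, with 7 called lower. Neural tissue markers (2 of 6 tested) summed to 72.7 to 117.6 CPM against 1.62 to 4.01 CPM, with 2 called lower. That sum was mostly Tubb3 (91.3 ± 22.5 CPM in WT libraries, 2.22 ± 1.49 CPM in DKO libraries). Sox2, also tested, averaged 1.34 ± 0.580 CPM in WT libraries and 0.0782 ± 0.0780 CPM in DKO libraries. Sox1, Elavl3, Neurod1 and Pax6 of that list were each at most at 0.168 CPM in any library. The part of these other cells in the results was not tested. Bulk tissue cannot tell fewer cells of a type from less RNA per cell.

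To compare the genes with each other, CPM were divided by the exon length of each gene in kilobases. In WT ectoderm Grhl3 was highest, at 48.9 ± 13.5 CPM per kilobase, followed by Trp63 at 36.2 ± 4.54. On this scale Grhl3 was above 90.5% and Trp63 above 87.2% of the 14205 protein-coding genes tested. Tfap2c (11.4 ± 1.14 CPM per kilobase) and Grhl2 (11.2 ± 1.37) came next. Tfap2b, Ovol1 and Ovol2 followed at 6.13 ± 2.86, 5.54 ± 1.69 and 5.45 ± 0.343 CPM per kilobase. Tfap2a, at 3.03 ± 0.620, and Grhl1, at 1.14 ± 0.333, were the lowest of the 9. Libraries overlapped between Grhl3 and Trp63, between Tfap2c and Grhl2, and between neighbours among Tfap2b, Ovol1 and Ovol2. The other neighbours in this order did not overlap. In DKO ectoderm Trp63 was first, at 21.9 ± 6.79 CPM per kilobase. Grhl3 (11.5 ± 10.7), Tfap2b (8.60 ± 6.05), Grhl2 (8.56 ± 2.39) and Tfap2c (8.22 ± 2.39) followed, and every neighbour in this stretch of the order overlapped.

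Of the 9 genes, 0 passed the threshold of an adjusted p under 0.05 in the DKO against WT comparison (edgeR quasi-likelihood test, p adjusted over all genes tested). Over all tested genes 4.51% passed, 2.81% lower and 1.7% higher in DKO. At an unadjusted p under 0.05 there were 5 of the 9, all lower in DKO (Trp63, Tfap2c, Grhl1, Grhl3 and Ovol1), against 9.36% of tested genes lower by that rule. With DESeq2, 2 passed, Trp63 and Grhl1, both lower, against 3.3% of genes called lower in that fit. That share is over 29852 genes, all those with a count, and includes genes with very few counts. It is not on the same base as the shares over the 19126 genes tested with edgeR. Without DKO 41, 3 passed, Trp63, Grhl1 and Grhl3, all lower, against a background of 2.97%. In 4 of the 9 (Trp63, Grhl1, Grhl3 and Ovol1) each DKO library lay below each WT library, which held for 11.3% of tested genes. The fitted log2 fold change (DKO minus WT) was negative for 8 of the 9. Their median was -0.47, beside 0.03 over all tested genes.

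**Figure D1:**
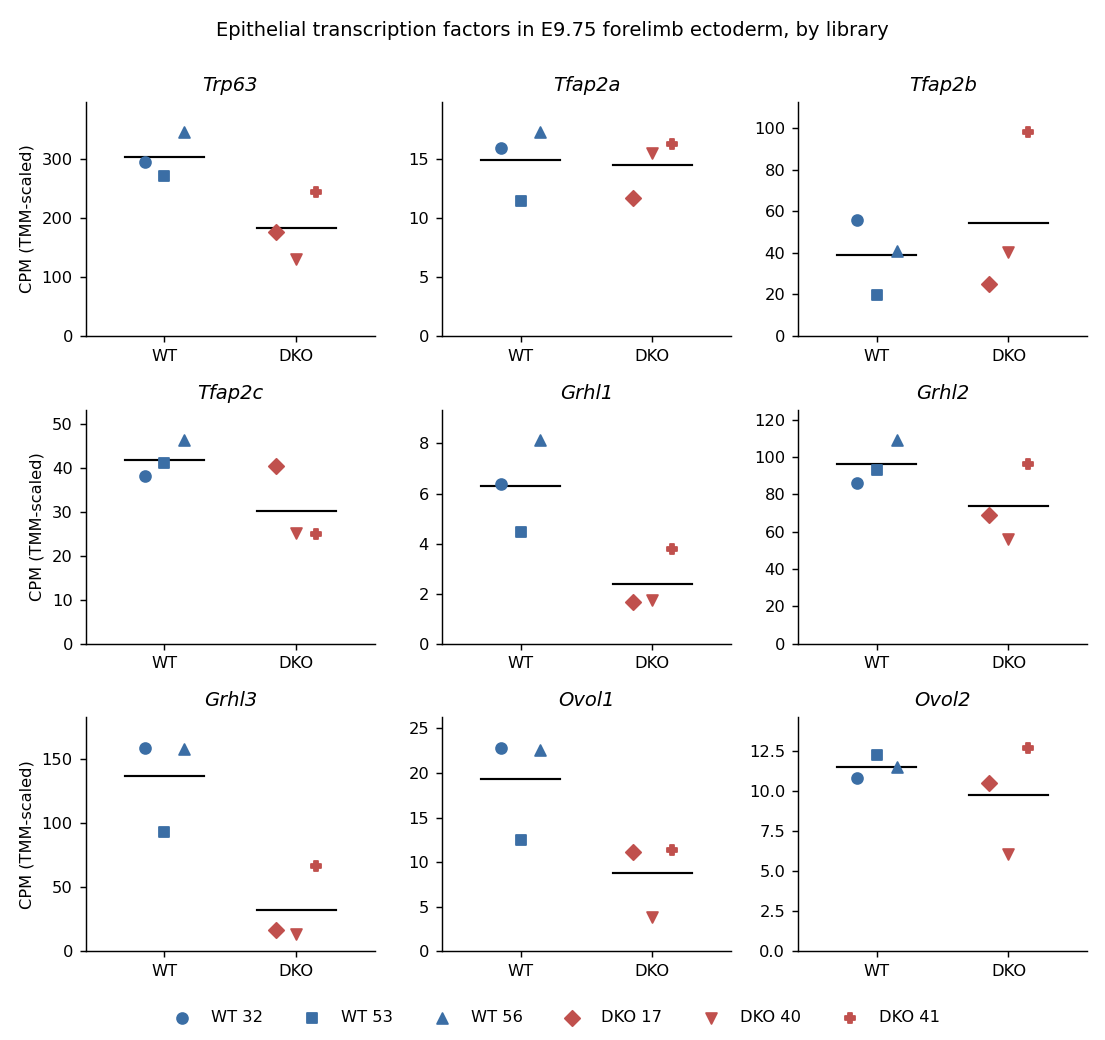
Level of each of the 9 transcription factor genes (y axis, TMM-scaled CPM, from 0) in the 3 WT libraries (blue) and 3 DKO libraries (red), with bars at the group means. DKO and WT libraries do not overlap for Trp63, Grhl1, Grhl3 and Ovol1, and DKO 41 is the highest DKO library for every gene but Tfap2c.

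Trp63 (ENSMUSG00000022510.14, GRCm38 chromosome 16, 25683763 to 25892102, plus strand) was read at 294.7, 271.1 and 345.7 CPM in WT 32, WT 53 and WT 56. Its DKO values were 175.8, 131.2 and 244.2 CPM in DKO 17, DKO 40 and DKO 41. The groups did not overlap, and the gap between DKO 41 and WT 53 was the narrowest point between them. The mean was 303.8 ± 38.1 CPM for WT libraries and 183.8 ± 56.9 CPM for DKO libraries, which is 60.5% of the WT level. The fitted log2 fold change of -0.72 (SE 0.207) had an approximate 95% interval of -1.19 to -0.26 and did not pass (edgeR adjusted p = 0.0915). Without DKO 41 it was -0.99 and passed (adjusted p = 0.0227), and DESeq2 with all libraries gave an adjusted p of 0.0314. The summed ridge and surface epithelium markers, of cells in which Trp63 is active, were lower in each DKO library than in each WT library, and their part in this value was not tested. The annotation lists 8 transcripts of Trp63, which include forms with and without the amino-terminal activation domain, and a count per gene does not separate them.

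Among the TFAP2 genes, Tfap2c (ENSMUSG00000028640.11, chromosome 2, 172549593 to 172558622), an early activator in ectoderm and trophoblast, was at 38.1, 41.2 and 46.4 CPM in the WT libraries. In DKO it was at 40.4, 25.2 and 25.05 CPM in DKO 17, DKO 40 and DKO 41. DKO 17 lay inside the WT range and the other DKO libraries below it. The fitted difference was -0.47 on the log2 scale (SE 0.207, edgeR adjusted p = 0.274). Leaving out DKO 17 gave -0.74 (adjusted p = 0.05055).

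Tfap2a (ENSMUSG00000021359.16, chromosome 13, 40715302 to 40738376), needed for closure of the face and body wall, had the most even levels of the 9 between the groups. It was at 15.9, 11.45 and 17.25 CPM in WT 32, WT 53 and WT 56 and at 11.7, 15.5 and 16.2 CPM in DKO 17, DKO 40 and DKO 41. Both groups spanned about the same range. The log2 fold change was -0.05, with an interval of -0.55 to 0.45 (edgeR adjusted p = 0.934). It took the opposite sign without DKO 17 (0.08) or WT 56 (0.06). Exons of Tfap2a share 265, 380 and 73 bases with 3 antisense genes, whose reads this unstranded chemistry cannot separate.

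Tfap2b (ENSMUSG00000025927.13, chromosome 1, 19208914 to 19238576), known from neural crest, kidney and facial ectoderm, was the one gene of the 9 with a higher mean in DKO. Its WT values were 55.9, 19.85 and 40.8 CPM in WT 32, WT 53 and WT 56, and its DKO values 25.15, 40.5 and 97.9 CPM in DKO 17, DKO 40 and DKO 41. DKO 41 alone lay above the WT range, and within each group the highest library was several times the lowest, by 2.82-fold in WT and 3.89-fold in DKO. The means were 38.85 ± 18.1 CPM for WT and 54.5 ± 38.3 CPM for DKO. Its fitted log2 fold change, 0.48 (SE 0.531, interval -0.76 to 1.72, edgeR adjusted p = 0.717), became -0.27 when DKO 41 was left out. DKO 41 also held the most blood RNA, whose part in this value was not tested.

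Of the GRHL genes, Grhl3 and Grhl1 had DKO values below all WT values and Grhl2 did not. Grhl3 (ENSMUSG00000037188.7, chromosome 4, 135541888 to 135573630, minus strand), which acts in neural tube closure, periderm and skin barrier formation, was at 158.5, 93.0 and 157.6 CPM in WT 32, WT 53 and WT 56. In DKO 17 and DKO 40 it was at 16.2 and 13.55 CPM, and in DKO 41 at 66.3 CPM. All DKO libraries were below all WT libraries, with DKO 41 nearer to WT 53 than to the other DKO libraries. The mean was 136.4 ± 37.55 CPM over WT libraries against 32.03 ± 29.7 CPM over DKO libraries, a 4.26-fold difference. On the log2 scale this was -2.08 (SE 0.599, interval -3.50 to -0.66) and did not pass (edgeR adjusted p = 0.119). Without DKO 41 it was -3.21 and passed (adjusted p = 0.002465), and without both DKO 41 and WT 32, the WT library with the most mesenchyme RNA, it was -3.11 (adjusted p = 0.00944), where 1.48% of genes were called lower. Periderm markers (7 of 8 tested, Krt4 at 0 counts throughout), which mark a layer where Grhl3 is active, summed to between 1030 and 1379 CPM in WT libraries and between 895.0 and 1422 CPM in DKO libraries, with 2 called lower and 1 higher. That sum mixes opposite changes. Krt19 was called higher (151.5 ± 11.8 to 408.7 ± 117.4 CPM) and Krt17 and Sfn lower. Krt7 averaged 312.3 ± 26.1 CPM against 192.2 ± 59.1 CPM without passing (edgeR adjusted p = 0.0844).

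Grhl1 (ENSMUSG00000020656.16, chromosome 12, 24572283 to 24617391), which acts on desmosome genes in skin, was the lowest of the 9. It was at 6.37, 4.45 and 8.14 CPM in WT 32, WT 53 and WT 56 and at 1.68, 1.75 and 3.78 CPM in DKO 17, DKO 40 and DKO 41. The groups did not overlap, and DKO 41 was again the highest DKO library. The raw counts behind these values ran from 134 to 711. The mean was 2.63-fold lower in DKO, with a log2 fold change of -1.40 (SE 0.380, interval -2.26 to -0.54, edgeR adjusted p = 0.0787). Without DKO 41 it was -1.92 (adjusted p = 0.0368), and DESeq2 with all libraries gave an adjusted p of 0.0195.

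Grhl2 (ENSMUSG00000022286.16, chromosome 15, 37233036 to 37363569), the family member that sustains E-cadherin and claudin expression in many epithelia, differed less. Its WT values were 86.2, 92.9 and 109.2 CPM and its DKO values 68.7, 56.02 and 96.3 CPM. DKO 41 lay inside the WT range and DKO 17 and DKO 40 below it. The log2 fold change was -0.38 (SE 0.197, interval -0.83 to 0.06, edgeR adjusted p = 0.358).

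**Figure D2:**
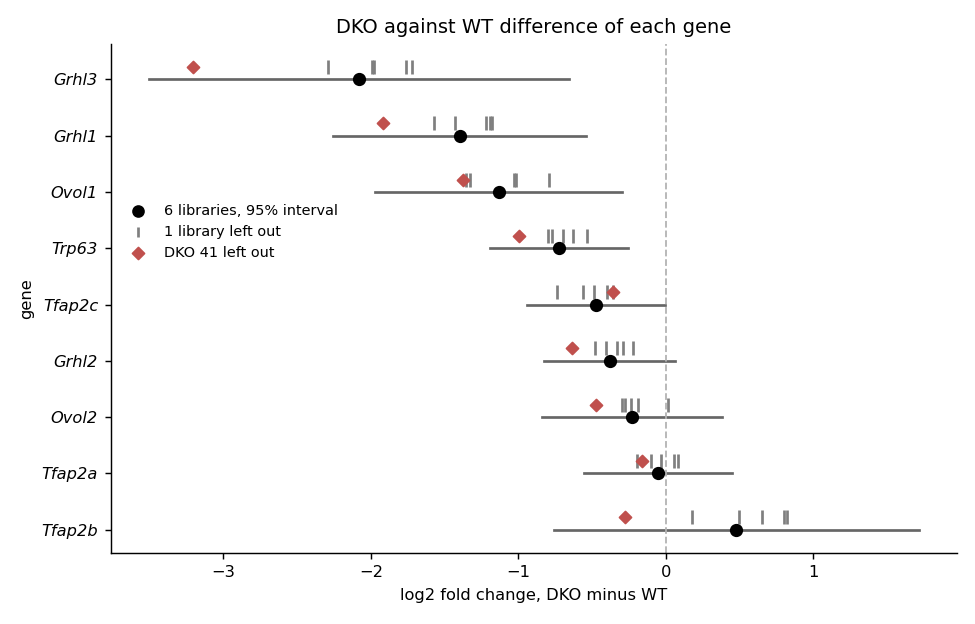
Log2 fold change (x axis, DKO minus WT) of each gene (y axis) from all 6 libraries with its approximate 95% interval (black), with each single library left out (grey ticks) and with DKO 41 left out (red diamonds). Grhl3 moves from -2.08 to -3.21 and Tfap2b from 0.48 to -0.27 when DKO 41 is left out.

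Ovol1 (ENSMUSG00000024922.2, chromosome 19, 5549136 to 5560646, minus strand), a repressor downstream of WNT signalling in epidermis, was at 22.8, 12.5 and 22.6 CPM in WT 32, WT 53 and WT 56. In DKO it was at 11.1, 3.88 and 11.4 CPM in DKO 17, DKO 40 and DKO 41. The groups did not overlap, but WT 53 lay close above DKO 17 and DKO 41. The mean was 19.3 ± 5.895 CPM over WT libraries against 8.81 ± 4.27 CPM over DKO libraries, with a log2 fold change of -1.13 (SE 0.371, interval -1.97 to -0.29, edgeR adjusted p = 0.137). The exons of Ovol1 share 690 bases with a pseudogene and 76 bases with an antisense gene on the opposite strand.

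Ovol2 (ENSMUSG00000037279.13, chromosome 2, 144305175 to 144332146), which represses Zeb genes and is needed in the early embryo, was at 10.8, 12.25 and 11.5 CPM in WT. Its DKO values were 10.47, 6.04 and 12.7 CPM in DKO 17, DKO 40 and DKO 41. DKO 40 lay below the WT range, DKO 41 above it and DKO 17 just under its lower end. The fitted value was -0.23 on the log2 scale (interval -0.84 to 0.38, edgeR adjusted p = 0.735), and 0.014 without DKO 40. Ovol2 varied least among WT libraries of the 9 genes, with a coefficient of variation of 6.30%.

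The spread among DKO libraries leaned to a shared order that did not hold for every gene. DKO 41 was the highest DKO library for 8 of the 9 genes, against 38.0% of all tested genes, and DKO 40 was the lowest for 5 of the 9, against 29.0%. The lowest DKO library was DKO 17 for Tfap2a, Tfap2b and Grhl1 and DKO 41 for Tfap2c. Among surface epithelium markers DKO 41 was the highest DKO library for 8 of 9 and DKO 40 the lowest for 8 of 9. Ridge markers differed, with DKO 41 the highest DKO library for 1 of 11. The genes come from the same 3 libraries, so these counts are not independent of each other. The coefficient of variation was larger in DKO than in WT for 8 of the 9 genes, all but Tfap2a. The share of all tested genes for which this held was not counted, so it cannot be called particular to these genes. The coefficient was 92.8% in DKO against 27.5% in WT for Grhl3 and 31.0% against 12.5% for Trp63.

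Within families, the make-up was compared by each gene's share of the family's summed CPM per kilobase. Over 11 family sums and shares, an exact two-sided permutation test of 3 against 3 libraries cannot go below p = 0.1, so none could pass. The GRHL sum was 61.2 ± 14.1 CPM per kilobase in WT and 20.5 ± 13.2 in DKO (exact permutation p = 0.1, 0.275 after Benjamini-Hochberg adjustment). Grhl3 made up 83.6%, 74.2% and 80.0% of it in WT 32, WT 53 and WT 56, and 41.2%, 41.6% and 66.7% in DKO 17, DKO 40 and DKO 41. Grhl2 took most of the rest, with 18.9% ± 4.71 in WT and 47.9% ± 14.3 in DKO. The shares of Grhl3 and Grhl2 did not overlap between the groups (exact permutation p = 0.1 each, 0.275 adjusted). Grhl1 held 1.85% in WT and 2.26% in DKO on average. The shares of Grhl3 and Grhl2 therefore mirror each other and are not separate results. The level of Grhl2 itself averaged 96.1 ± 11.8 CPM in WT and 73.7 ± 20.6 CPM in DKO.

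The TFAP2 sum was 20.55 ± 3.37 CPM per kilobase in WT and 19.8 ± 5.04 in DKO (exact permutation p = 0.9, 0.99 adjusted). The share of Tfap2b in it ranged from 18.8% in WT 53 to 39.3% in WT 32, and from 22.9% in DKO 17 to 60.4% in DKO 41. The share of Tfap2c was highest (67.2%) in WT 53 and lowest (26.6%) in DKO 41. The share of Tfap2a stayed between 13.0% and 19.3%, so those of Tfap2b and Tfap2c move in opposite directions by arithmetic. The groups overlapped for the shares of Tfap2b and Tfap2c. In the OVOL pair, Ovol1 made up 49.6% ± 9.89 in WT and 34.2% ± 5.66 in DKO (exact permutation p = 0.2, 0.314 adjusted), with DKO 17 at 39.2% above WT 53 at 38.2%.

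**Figure D3:**
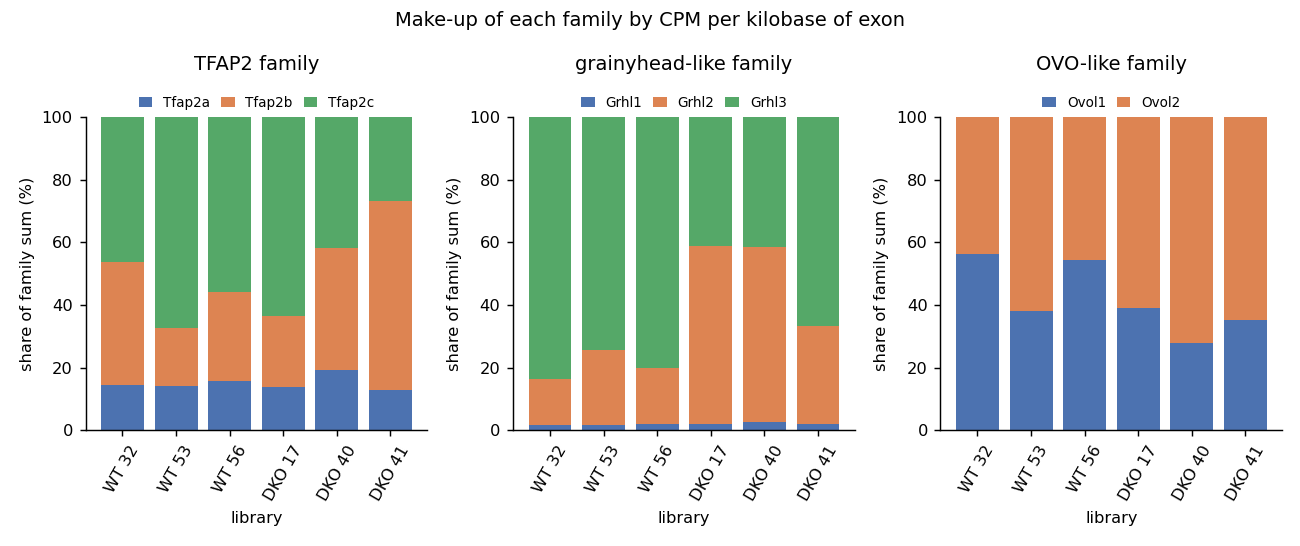
Share of each gene (y axis, percent of the family's summed CPM per kilobase of exon) in each of the 6 libraries (x axis) for the TFAP2, GRHL and OVOL families. Grhl3 holds 74.2% to 83.6% of its family in WT and 41.2% to 66.7% in DKO.

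Of 8 relatives of these factors, 5 were tested (Trp53, Trp73, Ubp1, Tfcp2 and Tfcp2l1). Tfap2d and Ovol3 had 0 counts in all libraries and Tfap2e was at most at 0.355 CPM, in WT 56. Trp73, the other p63-like member of the p53 family, was at 6.79, 7.39 and 9.81 CPM in the WT libraries and at 2.27, 0.967 and 3.93 CPM in DKO 17, DKO 40 and DKO 41. It fell by 1.71 on the log2 scale (SE 0.394, edgeR adjusted p = 0.0447) and was the one called gene of 5 tested in this list, where 2.81% of all tested genes were called lower. The call was lost with any 1 library but DKO 41 left out (adjusted p up to 0.193). Leaving DKO 41 out gave -2.30. Trp53 itself, the tumour suppressor, averaged 388.7 ± 48.7 CPM over WT libraries against 407.3 ± 23.04 CPM over DKO libraries (adjusted p = 0.825), and Ubp1, a grainyhead-related factor, had a log2 fold change of -0.11 (adjusted p = 0.759). Exons of Trp73 overlap those of its antisense gene, and exons of Ubp1 those of opposite-strand genes.

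Of 22 genes known as p63 targets, 10 were called lower and 0 higher, where 2.81% of all tested genes were called lower. The list's median log2 fold change was -0.91. Its lowest, -3.43, was that of Krt5, which did not pass (edgeR adjusted p = 0.0635). Col17a1, the hemidesmosome collagen, fell 9.87-fold from 14.9 ± 4.75 to 1.51 ± 1.32 CPM, with 0 counts in DKO 40 (edgeR adjusted p = 0.0112). Itgb4, its hemidesmosome partner integrin, fell from 16.3 ± 0.394 to 4.08 ± 1.39 CPM (adjusted p = 0.00455). The tight junction gene Cldn1 fell 3.49-fold (adjusted p = 0.0169). Perp, a desmosome gene that p63 activates, fell from 534.1 ± 45.6 to 273.2 ± 84.2 CPM (adjusted p = 0.0273), and Sfn, a cell cycle regulator of keratinocytes that is also a periderm marker here, fell from 554.5 ± 80.5 to 337.0 ± 34.05 CPM (adjusted p = 0.0196). The number of p63 targets called was 5, 2, 2, 6 and 1 without DKO 17, DKO 40, WT 32, WT 53 and WT 56, where 2.08%, 1.05%, 1.21%, 1.9% and 0.969% of genes were called lower. It was 13 without DKO 41, where 2.97% of genes were called lower. Of the 5 called genes named here, only Itgb4 was still called whichever single library was left out, and Col17a1 was not called by DESeq2 (adjusted p = 0.305). Exons of Itgb4 overlap those of an opposite-strand gene.

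Of 20 tested genes known as GRHL targets, 5 were called lower and 0 higher, where 2.81% of all tested genes were called lower. The list's median log2 fold change was -0.43. Tgm1, the transglutaminase of the cornified envelope, fell 6.81-fold from 27.9 ± 7.45 to 4.10 ± 1.96 CPM (edgeR adjusted p = 0.00288). The membrane protease gene St14 fell 3.03-fold from 338.5 ± 82.6 CPM (adjusted p = 0.00627), and the epithelial splicing factor gene Esrp2 fell 2.64-fold (adjusted p = 0.0478). The adhesion gene Epcam fell 1.45-fold (adjusted p = 0.0228), and Cdh1, which encodes E-cadherin and was named after its values were seen, fell from 282.9 ± 74.8 to 133.1 ± 42.55 CPM (adjusted p = 0.0437). Cldn6, the most abundant of the list, averaged 862.7 ± 148.3 CPM over WT libraries against 801.3 ± 107.3 CPM over DKO libraries (adjusted p = 0.775). Without DKO 40, WT 32 or WT 56 the number called was 2, and without DKO 41 it was 8. In these fits, in that order, 1.05%, 1.21%, 0.969% and 2.97% of genes were called lower. Tgm1 and St14 were still called whichever single library was left out. Esrp2 and Cdh1 each lost the call without DKO 17, DKO 40, WT 32 or WT 56 (adjusted p up to 0.209 and 0.171), and Epcam lost it when DKO 40 or a WT library was removed (up to 0.123). Epcam, Cdh1, Cldn6 and Esrp1 are also surface epithelium markers here. Exons of Esrp2 and Tgm1 overlap those of opposite-strand genes.

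Of 12 TFAP2 target and partner genes, 1 was called, lower in DKO, where 2.81% of all tested genes were called lower. Cited4, a co-activator that binds TFAP2 proteins, fell 10.7-fold from 40.2 ± 4.70 to 3.77 ± 1.72 CPM (log2 fold change -3.39, SE 0.285, edgeR adjusted p = 0.000617), and kept its call whichever single library was left out. The TFAP2-responsive Igfbp5 averaged 852.2 ± 107.4 CPM over WT libraries and was at 294.9, 224.2 and 674.1 CPM in DKO 17, DKO 40 and DKO 41 (adjusted p = 0.166). Without DKO 41 its log2 fold change was -1.72 in place of -1.10 (adjusted p = 0.00325). Krt18 had a log2 fold change of -0.27 (adjusted p = 0.253). The list's median was -0.13.

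Of 12 mesenchymal genes that OVOL and GRHL factors are known to hold down, 3 were called lower and 0 higher. Over all tested genes 2.81% were called lower and 1.7% higher. N-cadherin, Cdh2, fell 9.38-fold from 49.8 ± 8.16 to 5.31 ± 1.58 CPM (edgeR adjusted p = 0.000311). The growth factor gene Tgfb1 fell from 6.84 ± 0.507 to 1.13 ± 0.706 CPM (adjusted p = 0.00609) and Vim, the intermediate filament gene, fell from 67.1 ± 12.7 to 28.6 ± 3.56 CPM (adjusted p = 0.00668). These 3 calls held with any single library left out, and the log2 fold change of Tgfb1 was -3.25 without DKO 40 in place of -2.65. Snai2, a repressor of E-cadherin, averaged 104.9 ± 9.14 CPM over WT libraries against 91.7 ± 22.1 CPM over DKO libraries (adjusted p = 0.636), and the matrix gene Fn1 had an adjusted p of 0.373. Other members had higher means in DKO without passing, and 3 are given here after their values were seen, the mesenchymal regulators Twist2, Twist1 and Snai1. Twist2 was at 7.39, 2.305 and 0.549 CPM in WT 32, WT 53 and WT 56 and at 12.3, 67.1 and 26.1 CPM in DKO 17, DKO 40 and DKO 41. Its log2 fold change of 3.32 had an edgeR adjusted p of 0.078 (0.0332 to 0.221 with 1 library left out, 0.0311 with DESeq2), and was 4.71 without WT 32 and 2.47 without DKO 40. Twist1, also a limb mesenchyme marker here, averaged 6.45 ± 7.29 CPM over WT libraries and 29.5 ± 14.9 CPM over DKO libraries (adjusted p = 0.135, 0.0265 to 0.3575 with 1 library left out), with a log2 fold change of 2.14 that was 3.74 without WT 32. The groups did not overlap for Twist2 and Twist1. Snai1 averaged 1.57 ± 1.11 CPM against 5.04 ± 2.41 CPM, with overlap (adjusted p = 0.132). At an unadjusted p under 0.05 the list held 5 genes lower and 3 higher, beside 1791 lower and 1657 higher of 19126 tested genes. WT 32 and DKO 40, the highest library of each group for Twist2 and Twist1, were also those with the most limb mesenchyme marker RNA (248.8 and 339.1 CPM). Limb mesenchyme markers beside these genes had 1 called lower (Pdgfra) and 1 higher (Tbx2) of 11. Of 6 markers of neural tissue, some of whose cells carry N-cadherin, Tubb3 and Sox2 were called lower. The others of that list, Sox1, Elavl3, Neurod1 and Pax6, had too few counts to be tested, at most 0.168 CPM in any library. The part of either tissue in these values was not tested.

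**Figure D4:**
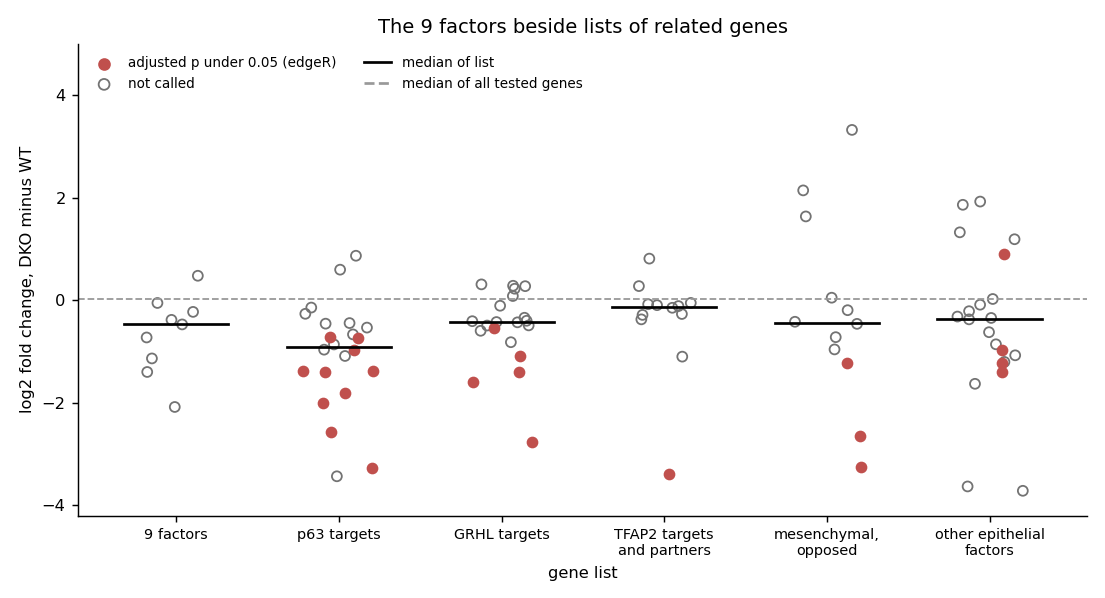
Log2 fold change (y axis, DKO minus WT) of the 9 factors and of the tested genes in 5 lists of related genes (x axis); red points passed an edgeR adjusted p of 0.05, open points did not, and black bars are list medians beside the median of all tested genes (dashed). Of the 9 factors 0 are red, against 10 of 22 p63 targets.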

How the data were processed

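The authors deposited whole-number counts per gene for 6 libraries. The submitters' processing notes name HISAT2, StringTie, Cufflinks, DESeq2, fastp and FastQC, and the builds mm10 and GRCm38. Which of them wrote the counts is not given in the sources used here. Per the labels' protocols, ectoderm was peeled by forceps after cold trypsin treatment, and libraries used SMART-Seq v4 with Nextera XT. That chemistry marks neither strand nor molecules.

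Counts were tested with edgeR 4.0.16 in R 4.3.3 (filterByExpr, TMM, glmQLFit with robust=TRUE and legacy=FALSE) over 19126 genes, called at a Benjamini-Hochberg adjusted p under 0.05. Standard errors and intervals were derived from the F statistic. DESeq2 1.42.0 was an alternative. The test was also run on simulated data, where it missed many of the changed genes and made some false calls. A gene that did not pass may therefore still differ. Lengths, positions and overlaps came from GENCODE M21. No 2 libraries were identical, and each pair within a group differed by more than sampling noise. List genes named are up to 3 called genes a direction with a mean of 5 CPM or more and the 2 most abundant, with exceptions stated. The members and lists were chosen with earlier results of these data known. Protein identity between family members was not analysed here. A withheld item is not reported here.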

Additional observations from a re-analysis of the deposited data

How the results depend on the processing

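No paired analysis was possible because the columns carry none of the labels' replicate numbers. The direction of Trp63, Tfap2c, Grhl1, Grhl2, Grhl3 and Ovol1 held in all 13 alternatives. It reversed for Tfap2a without DKO 17 (0.08) or WT 56 (0.06; range with 1 library left out -0.1966 to 0.08), for Tfap2b without DKO 41 (-0.27; range -0.27 to 0.82) and for Ovol2 without DKO 40 (0.01427; range -0.4735 to 0.01427). The cause was not tested. Of the 9 genes, 2 were called with DESeq2, 1 without both WT 32 and DKO 41, and 0 to 3 with 1 library left out. The count over all genes was 1737 with DESeq2, 546 with legacy=TRUE, 412 with no filter, 377 without both libraries and 247 to 918 with 1 library left out, in place of 863. The share of these calls that were higher in DKO also moved, with 325 higher and 538 lower at first, 116 and 296 with no filter and 95 and 282 without both libraries.

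The lists moved as well. For p63 targets the count of 10 became 5 with legacy=TRUE, 3 with no filter, 6 without both libraries and 1 to 13 with 1 library left out. For GRHL targets the count of 5 became 3 with legacy=TRUE, 3 with no filter, 2 without both libraries and 2 to 8 with 1 left out. For TFAP2 genes the count of 1 became 3 with DESeq2, 2 without both libraries and 1 to 2 with 1 left out. For mesenchymal genes the count of 3 became 7 with DESeq2 and was 3 to 4 with 1 left out. For other epithelial factors the count of 4 became 2 with library totals, 7 with DESeq2, 2 with legacy=TRUE, 1 with no filter, 2 without both libraries and 0 to 6 with 1 left out. The single call among relatives became 0 with library totals, legacy=TRUE, no filter and without both libraries, and was 0 to 1 with 1 left out. Depth gave each of the 9 genes at least 134 counts in every library.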

Other observations

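Of 21 tested genes for other epithelial transcription factors, 3 were called lower and 1 higher, with a median log2 fold change of -0.37. Over all tested genes 2.81% were called lower and 1.7% higher. Bnc1, a basonuclin of basal keratinocytes, fell 2.32-fold (edgeR adjusted p = 0.041), and the NOTCH response gene Hes1 fell 1.95-fold (adjusted p = 0.0181). Gata3, a factor of skin and placode ectoderm, rose from 42.4 ± 3.54 to 79.3 ± 8.91 CPM (a log2 difference of 0.90, adjusted p = 0.00879). The most abundant gene of the list, Msx2, had an adjusted p of 0.503. With 1 library left out, Gata3 lost its call without WT 56 alone (adjusted p = 0.0561), Hes1 without any 1 WT library (up to 0.0872) and Bnc1 in 4 cases, all but WT 53 and DKO 41 (up to 0.184). Exons of Bnc1 and Gata3 overlap those of other transcripts.

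Across the 6 libraries, the genes with the log2 CPM pattern most like that of each factor were taken from 7446 genes that averaged at least 20 CPM. They were picked for their likeness over these same 6 libraries, so high correlations and matching orders follow from that choice. All points also share library and depth, so the values are descriptions. Among those named here, Grhl1 was close to Scube1 (Pearson r = 0.998), and Grhl3 was closest to Olfm1 (0.998) and Wac (0.998). For Scube1 the values were 113.0, 53.4 and 145.6 CPM in WT 32, WT 53 and WT 56 and 13.1, 13.9 and 49.01 CPM in DKO 17, DKO 40 and DKO 41, in the same order as Grhl1 in all 6. Olfm1 had 78.4 CPM in DKO 41 against 34.8 and 34.7 CPM in the other DKO libraries, as Grhl3 had its highest DKO level there. Trp63 was closest to Hs6st1 (0.995), Tfap2c to Fastkd2 (0.992), Tfap2a to Vps39 (0.991), Tfap2b to Apc (0.987), Grhl2 to Chfr (0.991), Ovol1 to Paxbp1 (0.992) and Ovol2 to Adcy3 (0.988).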
